A study of Mus musculus with 20 samples.

Results

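The 9 mouse genes Atg7, Gnas, Picalm, Strap, Casp8, Dek, Atr, Irak4 and Serbp1 are orthologues of genes whose pre-mRNA splicing has been reported to change in human cells that carry U2AF1(S34F). They were taken by name, with earlier results of these data known, and all 9 were found among the 37620 genes of the bone marrow count table, together with their splice junctions among the 554616 junctions counted. RNA came from whole bone marrow of 20 recipient mice, 5 in each of 4 groups, after an engraftment of more than 6 weeks. All recipients carried donor marrow with a doxycycline-inducible, rtTA-dependent U2AF1 transgene, either U2AF1(WT) or U2AF1(S34F), and ate doxycycline chow (625 ppm) for 7 days. During the last 5 of those days each genotype received either sudemycin D6 or vehicle intravenously through a jugular catheter, which gave vehicle WT, sudemycin WT, vehicle S34F and sudemycin S34F mice. The labels give no age. Donor marrow was pooled within a genotype before transplantation, so mice of 1 genotype share donors, and the labels do not say how many cells of the recipient remained.

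U2AF1 is the small subunit of the factor that recognises the 3′ splice site, where it contacts the AG dinucleotide at the end of the intron and the bases around it. The S34F substitution lies in a zinc finger that touches the RNA, and it is known to shift the choice between 3′ splice sites according to the base just before the AG, disfavouring T there. Sudemycin D6 binds SF3B1, a component of the U2 snRNP that recognises the branch point upstream of the same splice sites. A change in either step can move exon inclusion, the use of competing splice sites, or both.

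Each mouse had 41145892 to 62138138 reads counted in genes (median 51836276) and 34384214 to 64813149 counted on junctions. Transcripts of U2af1 were higher in S34F than in WT marrow by 0.48 on the log2 scale with vehicle (SE 0.07, FDR 0.000294) and by 0.35 with sudemycin (FDR 0.00416), and transgenic and endogenous transcripts were not told apart. Counts of Xist ran from 39145 to 78640 in the 10 WT mice and from 1 to 8 in the 10 S34F mice, while 4 Y-linked genes together had 0 to 4 and 10270 to 15034 counts, so genotype and sex cannot be told apart in any S34F against WT comparison here. None of the 9 genes lies on a sex chromosome. Libraries of a group agreed closely (median correlation with the others of the group 0.9728 to 0.99), and sudemycin WT replicate 9 had the lowest value.

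The sites that carried the clearest results are shown first. Each is a 3′ splice site with 20 intron bases and 3 exon bases, 5′ to 3′ on the plus strand of build NCBIM37 (mm9), with positions −3 to −1 before the exon in capitals, since S34F is known to read this stretch. At Gnas the exon 3 site competes with a pair of sites of exon 4 that lie 3 bases apart, and the upstream one of this pair ends in TG instead of AG.
Gnas exon 3, chr2:174162228-174162250: tttcaatctctctttaaAAGggg
Gnas exon 4 upstream site, chr2:174167131-174167153: ttttcctttcaatcccaCTGtag
Gnas exon 4 downstream site, chr2:174167134-174167156: tcctttcaatcccactgTAGtga
At Picalm exon 15 an upstream and a downstream site compete 15 bases apart, and exon 13 competes with exon 14.
Picalm exon 15 upstream site, chr7:97339631-97339653: catctgtttgtaactttAAGgct
Picalm exon 15 downstream site, chr7:97339646-97339668: ttaaggctttgatgaacTAGgtg
Picalm exon 13, chr7:97330709-97330731: aattcactgggactgcaCAGatc
Picalm exon 14, chr7:97337640-97337662: ttgtgtttgcttcctctTAGgat
At Serbp1 exon 5 the sites lie 45 bases apart, and at Irak4 an inferred exon absent from the annotation competes with the next annotated exon.
Serbp1 exon 5 upstream site, chr6:67222793-67222815: tttcttctttctttcctTAGaga
Serbp1 exon 5 downstream site, chr6:67222838-67222860: caaatatcttataattgCAGtga
Irak4 unannotated exon, chr15:94386647-94386669: ccttcttaatctccttgTAGctc
Irak4 annotated exon, chr15:94387038-94387060: ctatatttttattttcaCAGatg

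Splicing was measured in a pair of ways. The inclusion level Ψ of a cassette exon is the mean of its inclusion junctions over that mean plus 1 skipping junction. A splice site choice is the share of the reads at 1 splice site that use 1 of its partner sites. Both were tested across the whole table with edgeR's quasi-likelihood test and Benjamini-Hochberg adjustment, and a difference was called at FDR below 10% and a change of more than 1%, the gene level at FDR below 10% alone. All adjusted p-values below are FDRs of these fits unless another tool is named. The smallest two-sided exact permutation p for 5 against 5 mice is 0.00794.

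In S34F against WT mice given vehicle, 3 of 33 member exon events were called, against 4.24% of all events, and 19 of 225 splice site choices, against 2.36% of all choices. With sudemycin in both genotypes the calls were 3 of 36 events (3.81% of all) and 11 of 226 choices (2.12% of all). The drug gave fewer calls. In WT mice 0 of 31 events (1.58% of all) and 1 of 219 choices (0.938% of all) were called by edgeR. Limma called 0 and 0 of the members there (89 of 25096 events and 168 of 138053 choices in all). By edgeR 5 member events (11.7% of all) and 26 choices (10.6% of all) had an unadjusted p under 0.05 in WT mice. In S34F mice the drug gave 2 of 32 events (1.75% of all) and 3 of 223 choices (0.801% of all). Sudemycin S34F against vehicle WT mice gave 3 of 34 events (7.3% of all) and 16 of 220 choices (4.26% of all). The genotype by drug term gave no call by edgeR or limma in 31 events (0.00808% of all called) or 241 choices (0.00246% of all called). Of these, 3 events (5.77% of all) and 21 choices (5.46% of all) had an unadjusted p under 0.05. Over all features limma called 0 of 24206 events and 3 of 154110 choices for this term.

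The calls fell into 11 separate regions of 6 genes: Gnas, Picalm, Irak4, Serbp1, Casp8 and Atg7. No call fell in Strap, Dek or Atr in any comparison. These calls depend on how the spread between mice is modelled: with a dispersion estimated by edgeR, none of the member splicing calls was left, and of all 25736 events tested between genotypes under vehicle 0 were called in that fit. The main form, with the dispersion fixed at 0, was chosen in earlier work on these data. With limma on the shares, 1 event and 10 choices of the 9 genes were called between genotypes under vehicle. Over all features limma called 317 of 25405 events and 1139 of 141447 choices in this comparison.

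Gnas encodes the stimulatory G protein alpha subunit, which couples hormone receptors to adenylyl cyclase, and its exon 3 separates the long from the short form of the protein. Exon 3 (chr2:174162248-174162292, 45 bases, coding in transcript Gnas-202, where it is the third of 12 exons) was included more often in S34F marrow. In order of replicate number, Ψ was 0.612, 0.645, 0.58, 0.538 and 0.597 in the vehicle WT mice and 0.702, 0.699, 0.71, 0.682 and 0.71 in the vehicle S34F mice. In the sudemycin groups it was 0.646, 0.602, 0.588, 0.59 and 0.531 in WT and 0.671, 0.703, 0.706, 0.652 and 0.683 in S34F mice. Every S34F mouse lay above every WT mouse within the same treatment, on 1339 to 2380 reads per mouse. The means were 0.594 ± 0.0395 and 0.7 ± 0.0115 with vehicle (SD, n = 5; difference 0.106, FDR 8.91e-07, exact permutation p = 0.00794) and 0.591 ± 0.041 and 0.683 ± 0.0227 with sudemycin (difference 0.0918, FDR 0.000233, exact p = 0.00794). The drug moved it by −0.00327 in WT mice (FDR 0.996) and by −0.0174 in S34F mice (FDR 0.737). Under limma the adjusted p was 0.0461 with vehicle and 0.101 with sudemycin, and no single mouse left out ended the edgeR call.

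The full set of reads that leave Gnas exon 2 gave the other destinations. The share spliced into exon 3 rose from 0.345 ± 0.0252 to 0.457 ± 0.0146 with vehicle (FDR 9.28e-07) and from 0.345 ± 0.036 to 0.425 ± 0.0205 with sudemycin (FDR 0.0024). The share that skipped exon 3 into the upstream exon 4 site, the one that ends in TG, fell from 0.436 to 0.349 with vehicle (FDR 0.000218) and from 0.438 to 0.38 with sudemycin (FDR 0.0548). The sudemycin call for this site was lost without sudemycin S34F replicate 2 (FDR 0.179), 9 (0.174) or 10 (0.1), or sudemycin WT replicate 12 (0.181). Use of the upstream site adds the 3 coding bases tag to exon 4, as in transcripts Gnas-014 and Gnas-020. The downstream exon 4 site took 0.218, 0.217, 0.193 and 0.191 of the reads in vehicle WT, sudemycin WT, vehicle S34F and sudemycin S34F mice. Reads that left exon 3 itself went almost wholly to the downstream site, with mean shares of 0.997 to 1.0 in the 4 groups. Among the reads that skipped exon 3, the upstream site took 0.667 ± 0.0136 and 0.644 ± 0.0191 in vehicle WT and vehicle S34F mice, a difference of −0.023 (exact permutation p = 0.0714), and 0.669 and 0.665 with sudemycin (exact p = 0.738). The groups overlapped in both, so a shift within the exon 4 pair itself was not shown.

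**Figure D1:**
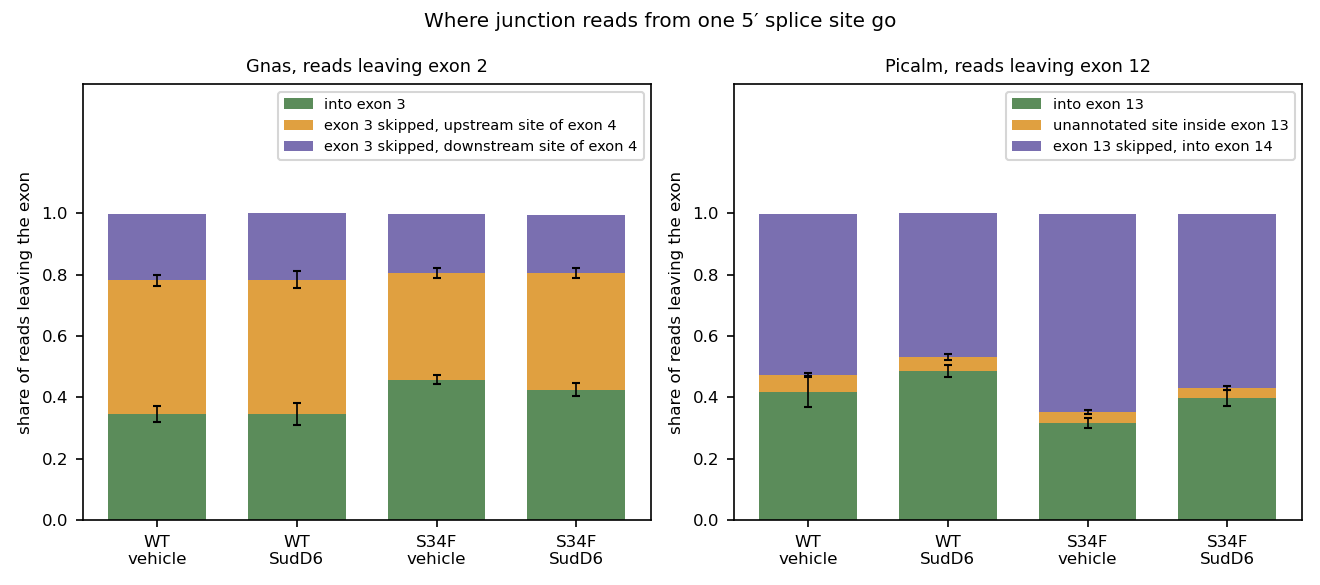
Stacked bars give the mean share of junction reads that leave Gnas exon 2 (left) and Picalm exon 12 (right) for each destination in the 4 groups, with the SD of 5 mice as error bars, and the vertical axis is a share of reads from 0 to 1. The share into Gnas exon 3 stood at 0.345 in both WT groups and at 0.457 and 0.425 in the S34F groups, while the share into Picalm exon 14 was highest in vehicle S34F mice at 0.646.

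The start of Gnas also differed. Reads that enter exon 2 came mainly from the first exon of the coding transcript (its 5′ splice site at position 174155935 of chromosome 2), with shares of 0.929, 0.938, 0.953, 0.945 and 0.929 in vehicle WT and 0.859, 0.901, 0.888, 0.896 and 0.85 in vehicle S34F mice. With sudemycin the shares were 0.942, 0.952, 0.969, 0.969 and 0.967 in WT and 0.934, 0.893, 0.903, 0.907 and 0.874 in S34F mice. All S34F mice lay below all WT mice of the same treatment, with a difference of −0.0598 with vehicle (0.939 and 0.879, FDR 0.00246) and −0.0579 with sudemycin (0.96 and 0.902, FDR 0.00184). Other reads came from an upstream annotated 5′ splice site at 174153442, with mean shares of 0.0395 and 0.0713 with vehicle (FDR 0.0871), and a 5′ splice site absent from the annotation at 174155901, which lies inside an annotated exon. The latter took 0.00393 and 0.0259 of the reads with vehicle (FDR 0.0292) and 0.00171 and 0.0282 with sudemycin (FDR 0.0011). The call for 174153442 was lost on leaving out any of 7 mice (vehicle WT replicates 2 to 5 and vehicle S34F replicates 1, 5 and 11; FDR 0.102 to 0.261), and that for 174155901 with vehicle was lost without vehicle S34F replicate 11 (FDR 0.154).

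The same region scored as a cassette exon (chr2:174153609-174155935) had a Ψ of 0.923 and 0.862 with vehicle (FDR 0.0218) and 0.941 and 0.888 with sudemycin (FDR 0.0484). These 2 calls were lost without vehicle WT replicate 4 (FDR 0.14) or vehicle S34F replicate 1 (0.114), and without sudemycin S34F replicate 6 (0.185) or 10 (0.152) or sudemycin WT replicate 12 (0.164). With its upstream junction alone the sudemycin difference turned to 0.0587 (exact p = 0.222). The junction into this region had a mean of 8.3 reads per mouse and the junction out of it 912. Its Ψ thus came almost wholly from reads leaving the region, the same reads as in the choice above, and does not show inclusion as a cassette. A 24-base exon at the same start had a Ψ of 0.26 ± 0.118 in vehicle WT and 0.13 ± 0.0879 in sudemycin S34F mice on 43 to 109 and 47 to 72 reads (FDR 0.0646, exact p = 0.0873), a call lost without sudemycin S34F replicate 6 or 10 or vehicle WT replicate 2, 4 or 5 (FDR 0.118 to 0.309). Nespas and AF085738 overlap Gnas on the other strand.

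The exons of other genes whose Ψ followed that of Gnas exon 3 most closely across the 20 mice were in Trim30a (Pearson r = 0.918 among 31939 exons), Lrrk2 (r = 0.894) and Pfkfb4 (r = 0.89). The Trim30a exon had a mean Ψ of 0.896, 0.878, 0.98 and 0.985 in vehicle WT, sudemycin WT, vehicle S34F and sudemycin S34F mice. These correlations run over mice of 4 groups and describe a shared pattern of group means.

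At the gene level Gnas was 314 ± 19.6, 285 ± 12.7, 288 ± 16.7 and 267 ± 8.19 CPM (counts scaled to library totals adjusted by TMM normalization) in vehicle WT, sudemycin WT, vehicle S34F and sudemycin S34F mice. It was called only between the first and the last of these groups (log2 fold change −0.24, SE 0.07, FDR 0.0119). Of 16 other genes of Gs and cAMP signalling, 3 rose and 5 fell between genotypes under vehicle (19.7% and 19.8% of all genes did), with a median log2 fold change of −0.09 against 0.0021 over all genes. Among them Gnai3, an inhibitory G protein alpha subunit, rose by 0.41 (SE 0.09, FDR 0.0041), Creb1, a transcription factor that answers to cAMP, rose by 0.36 (FDR 0.00512), and Adcy7, an adenylyl cyclase, fell by 0.28 (FDR 0.00739). Under sudemycin 2 of the 16 rose and 6 fell between genotypes (17.2% and 19.6% of all genes). Of the exon events of this list, 1 of 43 was called between genotypes under vehicle (4.24% of all events) and 3 of 44 under sudemycin (3.81%), and the drug gave 2 of 46 in WT (1.58%) and 1 of 46 in S34F mice (1.75%). An exon of Gnb1, which encodes a beta subunit of the G protein, was called in all 4. Its Ψ was 0.51 in vehicle WT, 0.415 in sudemycin WT, 0.582 in vehicle S34F and 0.486 in sudemycin S34F mice (FDR 0.0179 and 0.0136 for genotype with vehicle and sudemycin, 0.00916 and 0.000362 for the drug in WT and S34F mice).

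Irak4 encodes the kinase that relays signals from Toll-like and interleukin-1 receptors through MyD88. An exon of 300 bases between 94386667 and 94386966 on chromosome 15, absent from the annotation, was inferred from a 3′ and a 5′ splice site. Its junctions had unequal reads, with a mean of 20.8 per mouse into it and 42.1 out of it (8.0 and 31.2 in vehicle S34F mice). Whether both sites belong to the same exon was not tested. The 3′ splice site was passed over more often in S34F marrow. The share of reads leaving position 94385277 that passed over it was 0.916, 0.936, 0.888, 0.934 and 0.872 in vehicle WT mice and 0.985, 0.972, 1.0, 0.96 and 0.972 in vehicle S34F mice. Under sudemycin the share was 0.96, 0.817, 0.847, 0.921 and 0.852 in WT mice and 0.936, 0.955, 0.964, 0.973 and 0.956 in S34F mice. The groups did not overlap with vehicle (difference 0.0684, FDR 0.0434, exact permutation p = 0.00794) and overlapped with sudemycin, where WT replicate 6 was higher than the lowest 3 S34F mice (difference 0.0771, FDR 0.0264, exact p = 0.0317). The calls were lost without vehicle WT replicate 5 (FDR 0.146) or vehicle S34F replicate 5 (0.128), and without sudemycin WT replicate 8 (0.11). The share of reads that entered the next exon from the 5′ splice site at 94386966 fell from 0.172 to 0.0866 with vehicle (FDR 0.0645, lost without any of 7 mice at FDR 0.107 to 0.199: vehicle WT replicates 2 to 5 and vehicle S34F replicates 5, 7 and 11).

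A pair of further 5′ splice sites of Irak4 absent from the annotation moved in opposite directions. The site at 94396947 took 0.0419, 0.0643, 0.0524, 0.0175 and 0.0571 of the reads into the next exon in vehicle WT mice and 0.00257, 0.00491, 0.00412, 0.00391 and 0.00649 in vehicle S34F mice, where it rested on 1 to 3 reads per mouse (FDR 0.00996, exact p = 0.00794). With sudemycin its mean share was 0.0263 in WT and 0.0127 in S34F mice (FDR 0.527). The site at 94392933 took 0.00399 ± 0.00547 of the reads in vehicle WT, 0.0134 ± 0.0101 in sudemycin WT, 0.0186 ± 0.00925 in vehicle S34F and 0.0539 ± 0.0197 in sudemycin S34F mice. It was called only between the first and the last of these groups (difference 0.0499, FDR 0.00455).

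The gene level of Irak4 was 53.3 ± 3.1, 57.4 ± 6.22, 59.6 ± 7.55 and 67.3 ± 6.09 CPM in the same order. It was higher in S34F mice with sudemycin by 0.23 on the log2 scale (SE 0.09, FDR 0.0718), a call lost without sudemycin WT replicate 6 or 10 or sudemycin S34F replicate 6, 9 or 12 (FDR 0.129 to 0.166). Twf1 overlaps Irak4 on the other strand, and whether the gene counts used strand is not given in the sources used here. Of 11 other genes of MyD88 and IRAK signalling, 0 rose and 3 fell between genotypes under vehicle by edgeR (19.7% and 19.8% of all genes). Ikbkb, a kinase that activates NF-κB, fell by 0.59 (FDR 0.000307), Irak2, a partner kinase of Irak4, fell by 0.31 (FDR 0.0257) and Tab2 fell by 0.19 (FDR 0.0648). Of 35 exon events of this list 2 were called under vehicle (4.24% of all events), and an exon of Myd88, the adaptor itself, had a Ψ of 0.951 in WT and 0.983 in S34F mice with vehicle (FDR 0.0262).

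Picalm encodes a clathrin assembly protein that shapes endocytic vesicles. Its exon 15 (of 21 in transcript Picalm-201) begins at either of a pair of annotated 3′ splice sites, and the upstream one adds the 15 coding bases gctttgatgaactag. The share of reads that used the upstream site was 0.269, 0.288, 0.257, 0.276 and 0.265 in vehicle WT and 0.42, 0.422, 0.382, 0.374 and 0.439 in vehicle S34F mice. In mice given sudemycin it was 0.289, 0.294, 0.215, 0.269 and 0.287 in WT and 0.361, 0.325, 0.403, 0.419 and 0.359 in S34F mice. All S34F mice lay above all WT mice, on 1368 to 2392 reads each. The mean rose from 0.271 ± 0.0116 to 0.407 ± 0.0278 with vehicle (FDR 3.16e-09, exact permutation p = 0.00794) and from 0.271 ± 0.0325 to 0.373 ± 0.0375 with sudemycin (FDR 0.000196, exact p = 0.00794). The downstream site, which has T at the base before its AG, fell by 0.149 (from 0.71 to 0.561, FDR 3.28e-10) and by 0.109 (from 0.706 to 0.597, FDR 5.07e-06). The drug moved the upstream share by −0.000141 in WT mice (FDR 0.988) and by −0.0341 in S34F mice (FDR 0.482). Limma gave adjusted p-values of 0.00822 with vehicle and 0.107 with sudemycin for the upstream site, and 0.00822 and 0.0584 for the downstream one. Another site further in, absent from the annotation, took 0.0145 and 0.0163 of the reads in the WT groups and 0.0296 and 0.0269 in the S34F groups.

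Picalm exon 13 (chr7:97330729-97330878, 150 coding bases) moved with both genotype and drug. Its Ψ was 0.483, 0.37, 0.403, 0.45 and 0.44 in vehicle WT and 0.331, 0.348, 0.354, 0.377 and 0.36 in vehicle S34F mice. After sudemycin it was 0.49, 0.507, 0.456, 0.473 and 0.5 in WT and 0.434, 0.431, 0.44, 0.423 and 0.405 in S34F mice. It was lower in S34F than in WT mice, with a difference of −0.0752 with vehicle (FDR 0.000461, exact p = 0.0159, 1 WT mouse within the S34F range) and −0.0585 with sudemycin (FDR 0.0124, exact p = 0.00794, no overlap). Sudemycin raised it in S34F mice from 0.354 ± 0.017 to 0.427 ± 0.0135 (FDR 0.00018, exact p = 0.00794, no overlap). In WT mice the drug difference was 0.056 and missed the threshold (0.429 ± 0.0438 to 0.485 ± 0.0211, FDR 0.106, exact p = 0.0317), and the genotype by drug term was 0.0167 (FDR 0.918). Vehicle WT and sudemycin S34F mice had means of 0.429 and 0.427 (FDR 0.926). The vehicle S34F mice enter both the genotype difference with vehicle and the drug difference in S34F mice, with opposite sign. The sudemycin WT mice likewise enter the genotype difference with sudemycin and the drug difference in WT mice.

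Among the reads that leave exon 12, which Ψ also uses, the share that skipped exon 13 into exon 14 rose from 0.526 ± 0.0471 in vehicle WT to 0.646 ± 0.0193 in vehicle S34F mice (FDR 4.45e-05) and from 0.469 ± 0.0247 to 0.567 ± 0.0257 with sudemycin (FDR 0.000607), and in S34F mice it fell with the drug (FDR 0.00805). A 3′ splice site inside exon 13 that is absent from the annotation took between 0.0348 and 0.0539 of these reads in the group means. With vehicle, the share into exon 13 itself fell from 0.419 in WT to 0.317 in S34F mice (FDR 0.000574). The exon 13 site has C before its AG and the exon 14 site has T. The exon 14 site thus gained share and the exon 13 site lost it, opposite in direction to the known disfavouring of T. The unannotated site inside exon 13 also has T, and its mean share was 0.0539 in vehicle WT and 0.0357 in vehicle S34F mice. The genotype difference was not called on the downstream side of the exon, where the share of the reads entering exon 14 that came from exon 13 differed by −0.0315 with vehicle (FDR 0.507) and −0.0153 with sudemycin (FDR 0.811). With the downstream junction alone in Ψ the difference was −0.0369 with vehicle and −0.0184 with sudemycin (exact permutation p = 0.127 for each). Limma gave adjusted p-values of 0.181 and 0.0645 for genotype and 0.0254 for the drug in S34F mice. The authors listed Picalm events among their own, so these are not independent of the study's choice.

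**Figure D2:**
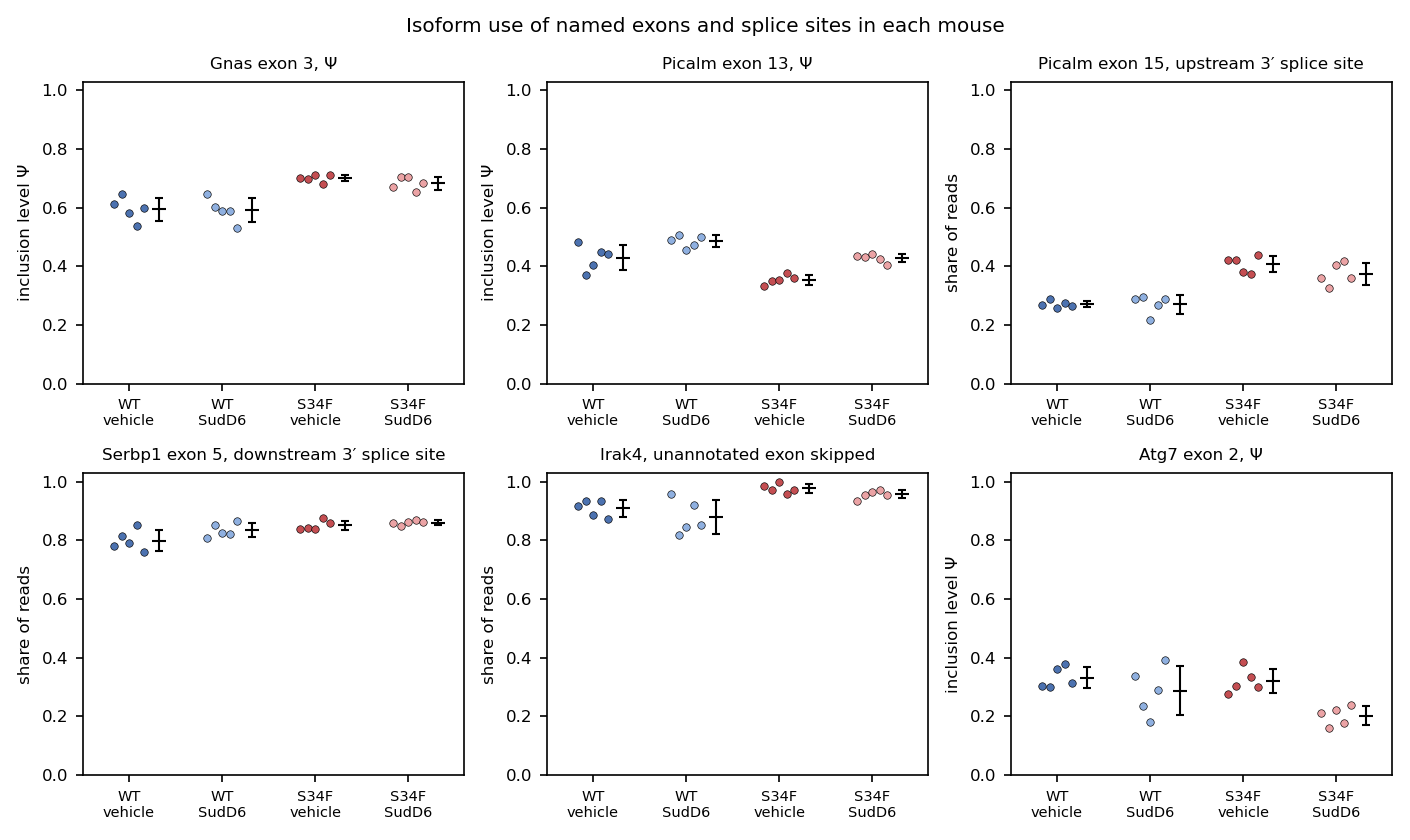
Points give Ψ or the share of junction reads (vertical axes, 0 to 1) in each of the 20 mice for 6 exons or splice sites, with the mean and SD of 5 mice beside them. The S34F mice lie above the WT mice of the same treatment for Gnas exon 3 and the upstream site of Picalm exon 15, and for Atg7 exon 2 the sudemycin S34F mice lie lowest in mean at 0.202.

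Elsewhere in Picalm, a 3′ splice site absent from the annotation (position 97298615) took a small share of the reads that leave the annotated 5′ splice site at 97279212. That share was 0.0436 ± 0.0184 in vehicle WT, 0.0147 ± 0.0122 in sudemycin WT, 0.0225 ± 0.005 in vehicle S34F and 0.0114 ± 0.0032 in sudemycin S34F mice. It was the only member splicing call for the drug in WT mice (difference −0.0288, FDR 0.0845, exact p = 0.0238), lost without vehicle WT replicate 1, 3 or 5 or sudemycin WT replicate 10 or 12 (FDR 0.111 to 0.217), and it was also called between vehicle WT and sudemycin S34F mice (FDR 0.000731). A 5′ splice site absent from the annotation before exon 14 (position 97336461) had shares of 0.0227, 0.0105, 0.00884 and 0.00284, called between the first and the last (FDR 0.00835).

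The gene level of Picalm, 358 ± 37.5, 383 ± 38.3, 329 ± 14.9 and 371 ± 34.5 CPM, was called in no comparison. Of 11 other genes of clathrin-mediated endocytosis, 1 rose and 4 fell between genotypes under vehicle (19.7% and 19.8% of all genes), 1 rose and 3 fell under sudemycin (17.2% and 19.6% of all genes), and in S34F mice 4 rose and 0 fell with the drug by edgeR (4.94% and 5.85% of all genes did). Epn1, an endocytic adaptor, was lower in S34F mice by 0.39 (FDR 0.00493) with vehicle and rose by 0.24 with the drug in S34F mice (FDR 0.0336). Ap2a1, a subunit of the AP2 adaptor complex, was lower by 0.36 (FDR 0.00758) and rose by 0.30 (FDR 0.0143) in the same comparisons. These 2 comparisons share the vehicle S34F mice.

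Atg7 encodes the E1-like enzyme that activates the ubiquitin-like proteins of autophagy. Its exon 2 (chr6:114596959-114597079, 121 bases, non-coding, second of 20 exons in transcript Atg7-202) lies before the start codon. Ψ was 0.304, 0.301, 0.36, 0.379 and 0.315 in vehicle WT, 0.339, 0.234, 0.18, 0.291 and 0.393 in sudemycin WT, 0.277, 0.304, 0.387, 0.333 and 0.301 in vehicle S34F and 0.21, 0.162, 0.222, 0.178 and 0.239 in sudemycin S34F mice. Only the last group stood apart from both vehicle groups, and it overlapped with sudemycin WT. In S34F mice the drug difference was −0.118 (0.32 ± 0.0425 to 0.202 ± 0.0318, FDR 0.095, exact p = 0.00794), and 9 of the 10 mice, each left out alone, ended the call (all but vehicle S34F replicate 1, FDR 0.111 to 0.311). Against vehicle WT mice sudemycin S34F mice differed by −0.13 (FDR 0.0344), a call lost without sudemycin S34F replicate 6 (FDR 0.147). With the upstream inclusion junction alone the drug difference in S34F mice was −0.083 (exact permutation p = 0.159). The 3′ splice site of exon 2 had a mean of 19.4 reads per mouse. All junctions of the event together had 178.45, of which 98.9 skipped the exon. Most inclusion reads thus left exon 2 and did not show how it was entered. Genotype gave no call under vehicle (FDR 0.961) or sudemycin (FDR 0.431). The authors' list included this exon too.

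The gene level of Atg7 was lower in S34F marrow. It was 150.1, 134.6, 167.6, 172 and 146.9 CPM in vehicle WT mice and 113.5, 105.5, 134, 142.6 and 124.8 CPM in vehicle S34F mice (log2 fold change −0.32, SE 0.10, FDR 0.0268). In the sudemycin groups it was 118.7, 162.2, 178.5, 125.3 and 122.3 CPM in WT mice and 96.89, 119.5, 115.4, 100.2 and 119 CPM in S34F mice (log2 fold change −0.36, SE 0.12, FDR 0.0421). Groups overlapped in both comparisons, and the second call was lost without sudemycin WT replicate 8 (FDR 0.111) or sudemycin S34F replicate 2 (0.104). Of 14 other autophagy genes, 2 rose and 3 fell between genotypes under vehicle (19.7% and 19.8% of all genes) and 2 rose and 4 fell under sudemycin (17.2% and 19.6% of all genes). Ulk1, the kinase that starts autophagy, fell by 0.78 (SE 0.14, FDR 0.00139), Sqstm1, a cargo receptor, fell by 0.30 (FDR 0.00629), and Gabarap, a substrate of the Atg7 pathway, rose by 0.23 (FDR 0.0566).

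Of the exon events of the autophagy list, 1 of 28 was called between genotypes under vehicle (4.24% of all events) and 1 of 29 under sudemycin (3.81%). With the drug the calls were 1 of 30 in WT (1.58%) and 1 of 24 in S34F mice (1.75%). An exon of Atg16l1, which brings the conjugation complex to the membrane, had a Ψ of 0.406 in vehicle WT and 0.252 in vehicle S34F mice (FDR 0.00426). An exon of Atg3, the E2-like enzyme next to Atg7, fell with the drug from 0.924 to 0.839 in WT (FDR 4.12e-05) and from 0.935 to 0.874 in S34F mice (FDR 8.74e-07). The gene level of Atg3 fell with the drug as well, by 0.39 in WT (FDR 0.0715) and by 0.25 in S34F mice (FDR 0.065).

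Casp8 encodes the initiator caspase of death receptor signalling. Its last exon (first base at position 58903466 of chromosome 1) received some reads from a 5′ splice site 142685 bases before the start of the gene, where the annotation shows no gene. That junction spans 193932 bases. It took 0.00283, 0.0219, 0.0598, 0.0107 and 0.0379 of the reads into the last exon in vehicle WT mice and 0.0859, 0.0617, 0.0772, 0.0669 and 0.0739 in vehicle S34F mice. No vehicle S34F mouse fell within the WT range (0.0266 ± 0.0228 and 0.0731 ± 0.00937, FDR 0.00759, exact p = 0.00794), and no single mouse left out ended the call. With sudemycin the means were 0.0241 ± 0.015 and 0.0418 ± 0.0132 (FDR 0.402), and limma gave an adjusted p of 0.144 with vehicle. The distant 5′ splice site sent more of its own reads to position 58711789, by a junction absent from the annotation. That share was 0.551, 0.645, 0.507 and 0.512 in vehicle WT, sudemycin WT, vehicle S34F and sudemycin S34F mice. Its share into Casp8 was 0.353, 0.339, 0.392 and 0.414. Whether the difference lies in the level of another transcript was not tested. The gene level of Casp8 was 73.8 ± 9.17, 65.6 ± 3.69, 76.8 ± 5.48 and 75 ± 5.03 CPM, higher in S34F mice with sudemycin by 0.19 (SE 0.07, FDR 0.053), lost without sudemycin WT replicate 10 (FDR 0.1) or sudemycin S34F replicate 12 (0.116). Of 13 other death receptor genes, 1 rose and 2 fell between genotypes under vehicle (19.7% and 19.8% of all genes). Tnfrsf10b, a receptor for the TRAIL ligand, fell by 0.68 (FDR 0.0258) and Tnfrsf1a, a TNF receptor, by 0.25 (FDR 0.0612), while Bid, which Casp8 cleaves, rose by 0.14 (FDR 0.0968).

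Atr encodes the kinase that answers to stalled replication forks. None of its 6 events or 15 choices was called in any comparison, and the largest difference was in a choice with few reads. There the share of the reads leaving position 95788662 of chromosome 9 that passed over the site at 95791182 to reach 95793834 was 0.502 ± 0.342 in vehicle WT and 0.193 ± 0.0823 in sudemycin S34F mice on 7 to 80 reads (FDR 0.222). The gene level was 33.73, 38.46, 39.23, 29.35 and 46.7 CPM in vehicle WT and 53.68, 65.03, 43.42, 40.8 and 43.78 CPM in vehicle S34F mice. The groups overlapped (log2 fold change 0.38, SE 0.14, FDR 0.049), and the call was lost without vehicle WT replicate 1 (FDR 0.11) or 4 (0.115) or vehicle S34F replicate 1 (0.105) or 3 (0.111). Under sudemycin it was 35.6 ± 6.44 and 42.8 ± 4.5 CPM and was not called. A U1 gene lies within Atr on the same strand, and Gm16794 and 1700065D16Rik overlap it on the other.

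Other genes of the ATR checkpoint were mostly higher in S34F marrow under vehicle: 10 of 13 rose and 0 fell by edgeR, against 19.7% and 19.8% of all genes, with a median log2 fold change of 0.28. Rad17, which loads the checkpoint clamp, rose by 0.54 (SE 0.11, FDR 0.00218), Chek1, the kinase that Atr activates, by 0.42 (FDR 0.00323), and Topbp1, the activator of Atr, by 0.39 (FDR 0.00535). With sudemycin 5 of 13 rose and 0 fell between genotypes (17.2% and 19.6% of all genes). The drug itself gave 0 calls by edgeR in WT mice (3.07% of all genes) and 0 in S34F mice (10.8% of all genes).

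Serbp1 encodes an RNA-binding protein that sits on ribosomes and on mRNA. Its exon 5 (of 8 in transcript Serbp1-201) is annotated to begin at 67222813 of chromosome 6, but most reads in every mouse used a site 45 bases further in that is absent from the annotation. The downstream site took 0.782, 0.814, 0.791, 0.851 and 0.759 of the reads in vehicle WT, 0.808, 0.851, 0.825, 0.823 and 0.868 in sudemycin WT, 0.839, 0.843, 0.84, 0.876 and 0.86 in vehicle S34F and 0.859, 0.85, 0.863, 0.87 and 0.862 in sudemycin S34F mice. Its share was higher in S34F mice by 0.052 with vehicle (from 0.8 ± 0.0352 to 0.852 ± 0.0161, FDR 0.00744, exact p = 0.0317), and 1 WT mouse lay within the S34F range. With sudemycin the difference was 0.0258 and missed the threshold (FDR 0.211), while sudemycin S34F against vehicle WT mice differed by 0.0612 (FDR 0.000137). Under limma the adjusted p with vehicle was 0.308. The skipped upstream site has T before its AG and the downstream one has C. The gene level was 204.6, 222.9, 180.9, 182.1 and 192.1 CPM in vehicle WT and 269.4, 275, 244.2, 239.4 and 233.4 CPM in vehicle S34F mice, without overlap. It was higher in S34F mice by 0.35 with vehicle (SE 0.08, FDR 0.00655) and by 0.25 with sudemycin (SE 0.10, FDR 0.071). The second of these was lost without sudemycin WT replicate 8 (FDR 0.121) or sudemycin S34F replicate 2 (0.136), 10 (0.149) or 12 (0.103).

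Strap encodes a WD-repeat protein of the SMN complex, which assembles spliceosomal snRNPs. Only 2 of its splice site choices could be tested, and neither was called. The share of reads leaving position 137694164 of chromosome 6 that reached 137697208 was 0.992 in vehicle S34F and 0.999 in sudemycin S34F mice (FDR 0.433). Its gene level was higher in S34F marrow, by 0.24 on the log2 scale with vehicle (66.6 ± 6.03 to 79.2 ± 4.27 CPM, SE 0.08, FDR 0.0315) and by 0.34 with sudemycin (71.3 ± 6.08 to 90.6 ± 6.7 CPM, SE 0.08, FDR 0.00872). In sudemycin S34F mice it was 93.39, 82.1, 85.59, 98.83 and 93.19 CPM, against 84.1, 82.06, 78.97, 73 and 77.7 CPM in vehicle S34F mice. These groups overlapped (log2 fold change 0.19, SE 0.06, FDR 0.0868), and 8 of the 10 mice, each left out alone, ended the call (all but sudemycin S34F replicates 6 and 9, FDR 0.103 to 0.18). Of 7 other SMN complex genes tested, 1 rose and 0 fell between genotypes under vehicle by edgeR (19.7% and 19.8% of all genes), and this was Ddx20, an RNA helicase (0.45, FDR 0.00385). Ddx20 was also higher in S34F mice under sudemycin, by 0.40 (FDR 0.00572). Smn1 rose with the drug in S34F mice by 0.36 (FDR 0.0182).

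Dek encodes a chromatin protein that also takes part in recognition of the 3′ splice site with U2AF. Its own 4 events and 23 choices held no call, and the largest difference was 0.985 ± 0.00676 in vehicle WT against 0.945 ± 0.0446 in vehicle S34F mice in the share of the junction from position 47181794 to 47181448 of chromosome 13 (FDR 0.329). Its gene level rose the most of the 9. It was 157.6, 211.1, 163.2, 136.2 and 187.6 CPM in vehicle WT and 264.8, 255.1, 222, 227.4 and 222.4 CPM in vehicle S34F mice. With sudemycin it was 176.8, 163.7, 178.1, 168.7 and 201.9 CPM in WT and 277, 218.4, 257.3, 270.4 and 253.1 CPM in S34F mice. Groups did not overlap in either comparison (log2 fold change 0.46, SE 0.11, FDR 0.00637 with vehicle, and 0.52, SE 0.08, FDR 0.00126 with sudemycin), and no single mouse left out ended either call.

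Across the 9 gene levels, 5 were called between genotypes under vehicle, where 39.5% of all genes were (19.7% higher and 19.8% lower), with Dek, Serbp1, Strap and Atr higher and Atg7 lower. Under sudemycin 6 were called (36.8% of all genes, 17.2% higher and 19.6% lower), with Dek, Strap, Serbp1, Irak4 and Casp8 higher and Atg7 lower. The drug gave 0 member calls in WT mice by edgeR and by DESeq2 (3.07% of all genes by edgeR, and 0 members at an unadjusted p under 0.05, against 13.3% of all genes) and 1 in S34F mice, Strap (10.8% of all genes). Sudemycin S34F against vehicle WT mice gave 6 calls, 4 higher and 2 lower (50.2% of all genes, 25.1% in each direction). The genotype by drug term gave 0 member calls by edgeR and by DESeq2 (0.013% of all genes by edgeR) and 0 members at an unadjusted p under 0.05 (7.43% of all genes).

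**Figure D3:**
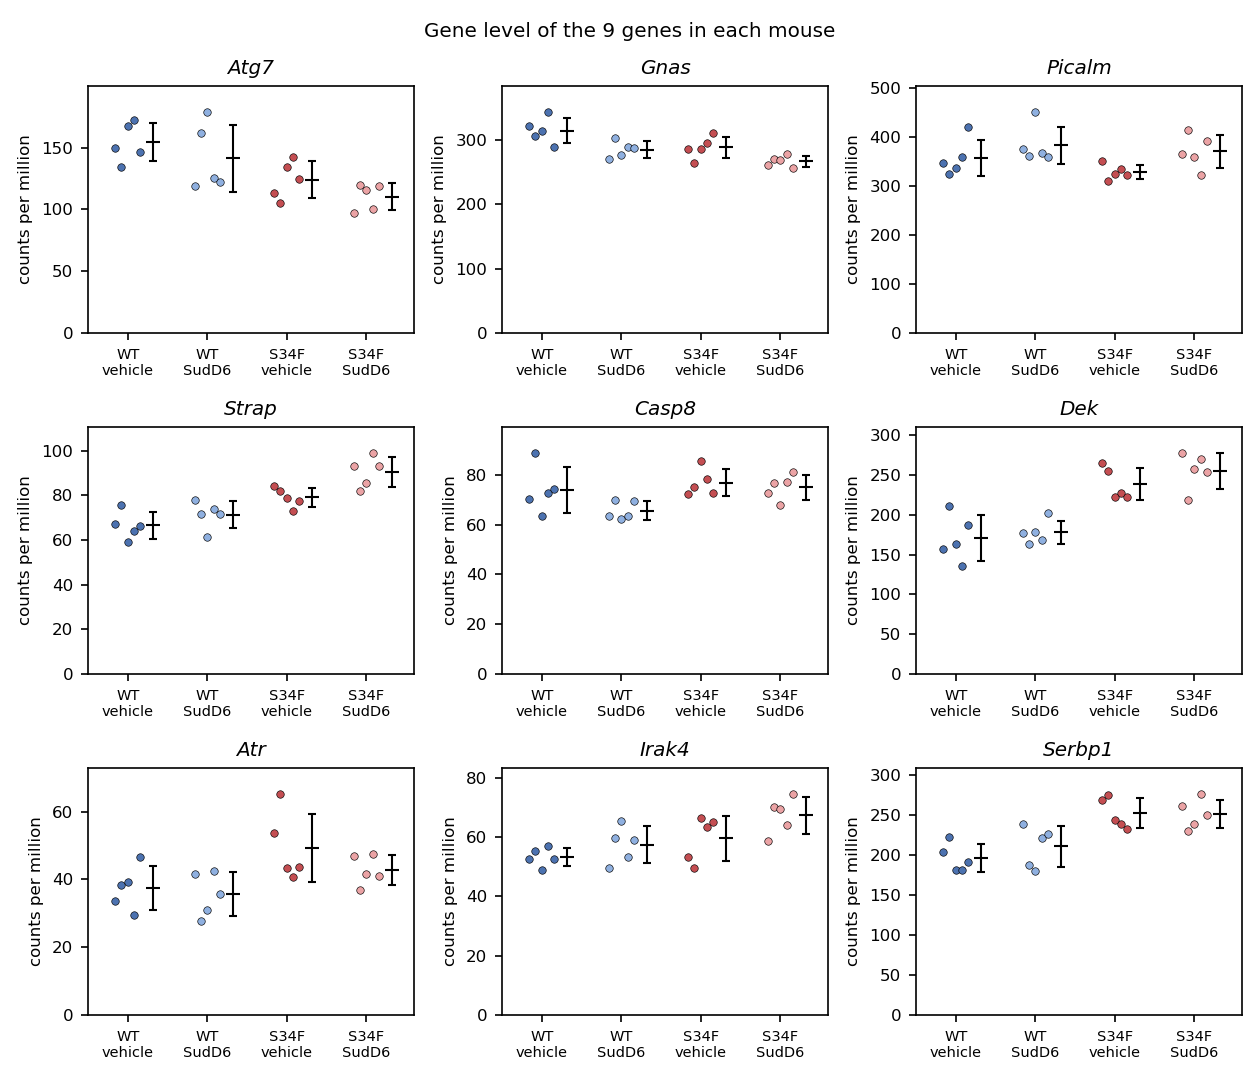
Points give the gene level of the 9 genes in CPM (vertical axes, from 0) in each of the 20 mice, with the mean and SD of 5 mice beside each group. Dek stood at 171 and 178 CPM in the WT groups and 238 and 255 CPM in the S34F groups, and Picalm overlapped in all 4 groups.

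In bulk marrow, fewer cells of a type and less RNA per cell cannot be told apart, and cell type markers moved with the groups. The 10 neutrophil markers summed to 65700 to 73800 CPM in vehicle WT and 87200 to 142000 CPM in vehicle S34F mice, and to 61300 to 107000 and 75400 to 124000 CPM with sudemycin. The 10 B cell markers summed to 45.7 to 155 CPM in vehicle WT and 38.4 to 57.3 CPM in sudemycin S34F mice, and all 10 were called lower in the latter (25.1% of all genes). Between genotypes 0 of these 10 were called under vehicle (39.5% of all genes), and 6 fell under sudemycin (19.6% of all genes). Of 9 monocyte and macrophage markers, 1 rose and 5 fell between genotypes under vehicle (19.7% and 19.8% of all genes), and 3 rose and 1 fell under sudemycin (17.2% and 19.6% of all genes). Of 10 erythroid markers, 1 fell between genotypes under vehicle (19.8% of all genes) and 5 under sudemycin (19.6% of all genes). With the drug, 4 of 5 stem and progenitor markers fell in S34F mice (5.85% of all genes) and 2 of 5 in WT mice (3.07% of all genes called in either direction). Kit, the receptor for stem cell factor, fell in S34F mice by 0.57 on the log2 scale (FDR 0.00781). No marker of any list was at 0 in any mouse. The part of these shifts in the levels and isoforms of the 9 genes was not tested.

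**Figure D4:**
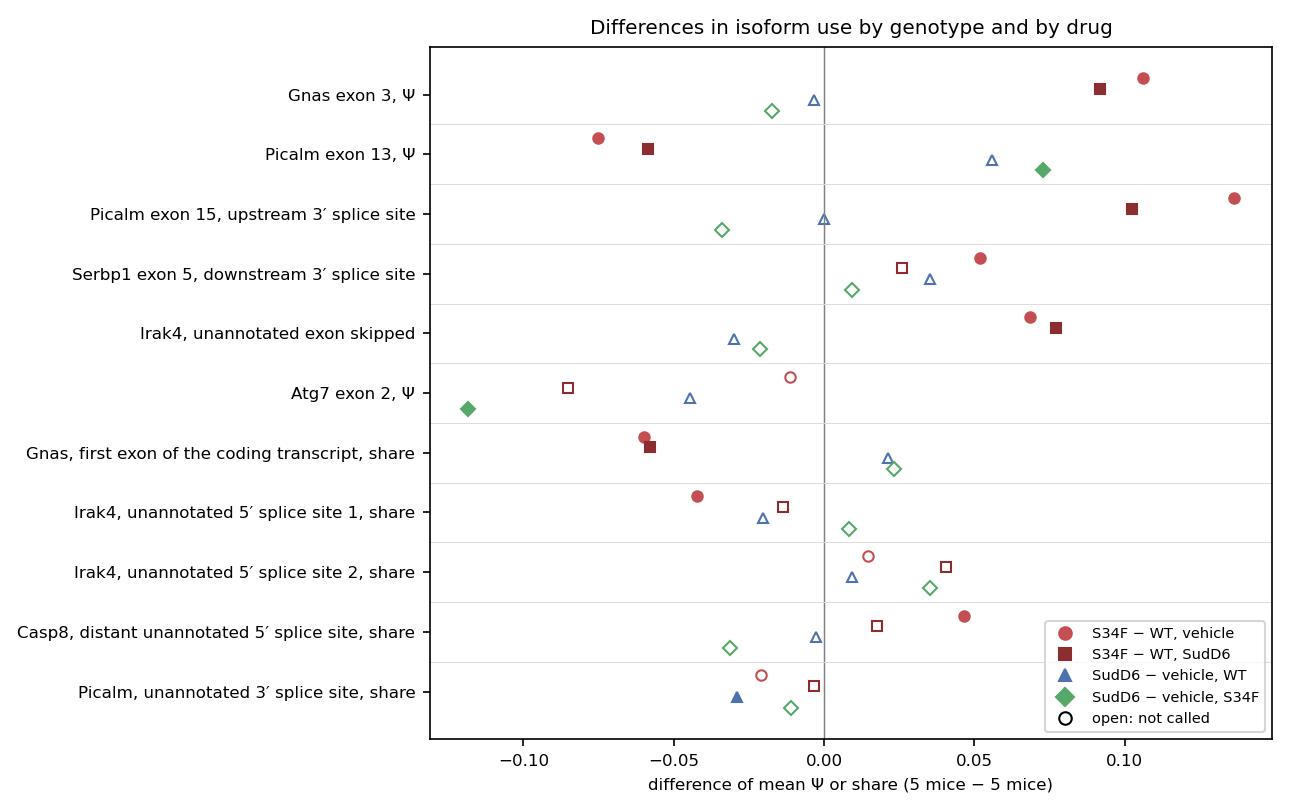
The horizontal axis gives the difference of the mean Ψ or share between 2 groups of 5 mice for 11 exons or splice sites of the 9 genes, with a symbol for each comparison, filled where called. Genotype symbols for Gnas exon 3 lie at 0.106 and 0.0918 and its drug symbols near 0, while for Picalm exon 13 genotype (−0.0752 and −0.0585) and drug (0.056 and 0.0727) lie on opposite sides. Genotype and drug comparisons share groups of mice with opposite sign, and the exon 13 drug difference of 0.056 in WT mice was not called.

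The base before the AG can be set beside the whole table. Among choices of a 3′ splice site that ends in AG, 57.6% of the 911 whose share fell between genotypes under vehicle had T at position −3, against 14.9% of the 919 whose share rose and 29.5% of all tested. Under sudemycin the values were 56.9% of 793 that fell and 29.3% of all tested, and 137 of the 808 that rose had T. The 9 genes gave 7 called AG sites under vehicle, too few to read a share from: the 5 that rose had A at 2, C at 2 and T at 1, and the 2 that fell had C and T. The upstream Gnas exon 4 site, which ends in TG, also fell and is not in these counts. Where a 5′ splice site had only 2 junctions, 1 of them was kept, in the 9 genes and in the whole table. The partners left out in Serbp1 (0.2 to 0.148) and Irak4 (0.0905 to 0.0221) both fell with vehicle and both have T. Of the 112 tested AG choices of the 9 genes, 28 had T.

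Other genes reported as human S34F targets gave a further frame. Of 34 exon events in H2afy, Bcor, Wac, Med24, Ctnnb1, Chchd7, Fmr1, Cep164 and Mll2, 8 were called between genotypes under vehicle (4.24% of all events) and 5 of 38 under sudemycin (3.81%), while the drug gave 1 of 37 in WT (1.58%) and 1 of 33 in S34F mice (1.75%). H2afy, which encodes the histone variant macroH2A1, had an exon whose Ψ rose from 0.846 to 0.953 with vehicle (FDR 7.22e-18) and from 0.897 to 0.971 with sudemycin (FDR 5.82e-13). An exon of Fmr1, an X-linked gene for an RNA-binding protein, went the other way, from 0.503 to 0.353 (FDR 0.000129) and from 0.451 to 0.294 (FDR 3.35e-06). Med24, a Mediator subunit, had an exon whose Ψ rose from 0.138 to 0.397 with vehicle (FDR 4.44e-06) and from 0.0968 to 0.293 with sudemycin (FDR 9.82e-07).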

How the data were processed

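Total RNA depleted of ribosomal RNA was sequenced from bone marrow of 20 mice in stranded paired-end libraries. The authors aligned reads with TopHat2 2.0.8 to mm9 and deposited 2 tables of counts without normalization, one per gene and one per splice junction. The gene counting program and its strand setting are not given in the sources used here. Both tables were used whole, with gene symbols and exons taken from the annotation GENCODE M1, on that build. The gene test was the robust quasi-likelihood fit of edgeR 4.0.16 (R 4.3.3) after filterByExpr and TMM, with a prior count of 2, Benjamini-Hochberg adjustment over all genes and a call at FDR below 10%. CPM values use TMM library sizes.

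Cassette exons and splice site choices were kept with 10 or more reads per mouse on average and, on each isoform, 1 or more, a stricter reading of the planned filter. Ψ was the mean of both inclusion junctions over that plus the skipping junction. Isoform counts were fitted with a coefficient for each mouse, the negative binomial dispersion fixed at 0 and the spread between mice in the quasi-likelihood term, and called at FDR below 10% and a difference above 1%. Each comparison used its own 10 mice, the interaction all 20. Single values had two-sided exact permutation tests. The scripts were tested on simulated data. Alternatives were DESeq2 1.42.0, limma 3.58.1, an estimated dispersion, other filters and thresholds, one model of all mice, the replicate number as a block, and each mouse left out in turn.

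All members were named at the gene level. For splicing, each member's called features were named, at most the 4 distinct ones with the smallest FDR, or else the one with the largest difference, and up to 3 genes per pathway list with the smallest FDR. The use of the exon 4 pair among reads that skip Gnas exon 3 was added after seeing the data. The members and lists were chosen with earlier results of these data known, and the fixed dispersion was chosen in earlier work on these data. Replicate numbers did not pair the mice. p-values measure the spread between recipient mice that share pooled donor marrow. Sequences came from the mm9 genome.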

Additional observations from a re-analysis of the deposited data

Results flagged for a closer look

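Of 92 groups of 5 mice examined over the named values, 3 had 1 mouse far from the other 4 by Dixon's criterion (a gap above 0.71 of the range), and chance flags about 1 in 20 groups. Sudemycin WT replicate 9 had a Picalm gene level of 450 CPM, with the nearest other mouse at 376 CPM (gap 0.81 of the range). The same mouse had a share of 0.757 for the downstream site of Picalm exon 15, with the nearest at 0.703 (gap 0.75). Sudemycin WT replicate 6 had a share of 0.975 for the Strap junction from 137694164 to 137697208, with the nearest at 0.997 (gap 0.88).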

How the results depend on the processing

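With a dispersion estimated by edgeR, calls of the 9 genes fell from 3, 3, 2 and 3 exon events to 0 (genotype under vehicle, genotype under sudemycin, drug in S34F, both against vehicle WT) and from 19, 11, 1, 3 and 16 splice site choices to 0 (with the drug in WT after genotype under sudemycin). Limma left 1 event under vehicle (317 of 25405 over all events). Its other event counts are not listed here, and Picalm exon 13 stayed called under sudemycin and for the drug in S34F. Member choices left by limma were 10, 4, 0, 1 and 10. Over all choices limma called 1139 of 141447, 1187 of 139772, 168 of 138053, 399 of 141041 and 3370 of 141296. The replicate block, for numbers that do not pair the mice (correlations of same-numbered mice −0.111 to 0.211), left 1 event under sudemycin, 10 choices under vehicle, and ended the gene calls of Atr under vehicle (FDR 0.101) and Atg7 and Serbp1 under sudemycin (0.173 and 0.225). Over all features the block called 389 of 25275 events under sudemycin and 1461 of 146145 choices under vehicle. One model of all mice gave 2 events and 3 choices for the drug in WT, and 1 event and 0 genes for the drug in S34F. Over all features that model called 753 of 24758 events and 1682 of 162695 choices for the drug in WT. For the drug in S34F it called 233 of 24758 events and 788 of 15392 genes. At FDR below 5%, 3 genes were called under sudemycin and 0 for the drug in S34F, also 0 with no filter beyond 1 count. A difference above 5% left 0 choices for the drug in WT and 7 for both. Any read on each isoform, chosen after seeing the data, gave 5 events under vehicle (1874 of 56078 over all events). With 1 inclusion junction, the exact tests gave −0.083 (Atg7 exon 2, drug in S34F, p = 0.159), −0.0369 and −0.0184 (Picalm exon 13, genotype, p = 0.127 each) and 0.0587 (long Gnas cassette under sudemycin, reversed, p = 0.222). Without 1 mouse, calls ran from 4 to 5, 3 to 6, 0 to 0, 0 to 1 and 6 to 7 genes, 2 to 4, 2 to 4, 0 to 1, 1 to 2 and 1 to 4 events, and 15 to 20, 10 to 12, 0 to 3, 2 to 4 and 13 to 15 choices, in the order genotype under vehicle, under sudemycin, drug in WT, drug in S34F, both. Genotype under sudemycin had 3 genes without sudemycin S34F replicate 12, and both against vehicle WT had 1 event without sudemycin S34F replicate 6. Over all refits of single named calls without 1 mouse, 680 stayed past the threshold and 110 did not. Causes were not tested. The Atr choice rested on 7 to 80 reads per mouse.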
